A study of Mus musculus with 6 samples.

Results

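The genes described here are 8 genes of the B lymphocyte lineage, Ebf1, Pax5, Igll1, Vpreb1, Cd79a, Cd79b, Fcrl1 and Blnk, out of 18193 genes measured. They were read through every probe set that the platform annotation assigns to 1 of these genes alone, which gave 15 of the 45037 probe sets other than array controls (5 for Ebf1, 2 each for Pax5, Igll1 and Fcrl1, and 1 each for the others). A probe set is a group of short oligonucleotides on the array that together give 1 signal. The genes were picked with their difference between the genotypes already known, so that difference is given below as a description with no test. The study compared bone marrow LSK cells, the Lin-, Sca1+ and c-Kit+ compartment of blood-forming stem cells and early progenitors, between C57BL/6 mice with the genotype Srf+/+;Mx1-Cre (3 control arrays) and Srf flx/flx;Mx1-Cre (3 SRF-null arrays), and asked which transcripts depend on the transcription factor SRF. All mice, controls included, carried the Mx1-Cre transgene and received pIpC, a double-stranded RNA that drives Cre through an interferon-responsive promoter, in 3 doses of 200 µg every 2 days from 6 weeks of age. Cells were sorted 35 days after the last dose from pooled animals. Mx1-Cre acts in many interferon-responsive cells and not only in LSK cells, and how many animals made up a pool is unknown here, so the spread between arrays may be technical in part.

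B cell development starts when a lymphoid progenitor switches on a small set of transcription factors, among them EBF1 and then PAX5, which commit the cell to the lineage. The early B cell makes an immunoglobulin heavy chain before any light chain, and pairs it with a surrogate light chain built from the products of Vpreb1 and Igll1. This pre-B cell receptor signals through CD79A and CD79B, the same pair that serves the mature B cell receptor, and the adaptor BLNK carries the signal onward. LSK cells lie upstream of these steps, although some multipotent progenitors are known to transcribe lymphoid genes at low levels. Because the cells were measured in bulk, fewer cells that hold a transcript and less of the transcript per cell cannot be told apart.

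The arrays had upper quartiles of 5008 to 5312 and 26% to 26.9% of probe sets below a signal of 16 on each array. Their medians were less alike, at 200.4 to 292.2, a spread of 0.51 on the log2 scale. Values below are log2(intensity + 16) after quantile normalization, on which scale 4 is the floor, and n = 3 arrays per genotype. Of the LSK markers the c-Kit gene Kit was at 14.81 to 15.44 and Cd34 at 16.72 to 16.93. Slamf1, a stem cell marker and the LSK marker with the largest range, read 11.60, 12.33 and 11.80 on control and 11.61, 10.73 and 9.18 on SRF-null arrays (difference −1.40, SE 0.62), and Ly6a, the gene of Sca1, was not analysed here. Among 7 T cell and 4 erythroid genes only Cd3g and Hba-a1 lay below a signal of 16 on all 6 arrays. Some others of these lists were well above it, among them Thy1 at 10.51 to 12.72 and Klf1 at 9.80 to 12.75. The targeted gene Srf was at 13.00 to 13.04 on the control arrays and 12.43 to 12.80 on the SRF-null arrays for its brighter probe set, and its dimmer one differed by 0.10 (SE 0.35). Control replicate 2 lacked Y-linked signal (Eif2s3y at 4.37, against 13.06 to 14.50 on the others) and SRF-null replicate 1 lacked Xist (5.03, against 15.13 to 16.24). These 2 arrays thus came from pools that stand apart in sex, and without both the mean difference over the 8 genes was 0.41 in place of 0.12 and that of the brighter Igll1 probe set −1.55 in place of −3.06. Even without them Y-linked signal differed by genotype. Eif2s3y read 14.04 and 13.06 on control replicates 1 and 3, and 14.18 and 14.50 on SRF-null replicates 2 and 3. Kdm5d, also Y-linked, read 10.54 and 10.57 against 11.84 and 11.97. Leaving out the 2 arrays therefore does not level the genotypes in sex-linked signal, and its part in the differences was not tested. Arrays with the same replicate number deviated from their group means together, so the numbers were taken to pair the arrays. Every SE given here comes from a comparison without this pairing, so it includes the spread between numbers.

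Promoter sequences from RefSeq (GRCm38.p6), running from 250 bases before to 50 bases after a gene's start, were found for 7 of the 8 genes, and Cd79b had none. The 4 promoters shown first belong to the genes whose brightest probe set was highest on both arrays numbered 3, and the last, of Fcrl1, to a gene with another pattern. Past those 2 arrays only Cd79a and Blnk, of these 4, ranked the arrays alike. Capitals mark matches on either strand to CAGNTG, an E box form bound by E2A proteins, and in Igll1 also to CCCNNGGG, the core of the EBF palindrome. The Igll1 window is chr16:16863936-16864235 (minus strand), the Vpreb1 window chr16:16869206-16869505 (minus strand, 5270 bases away), the Cd79a window chr7:24897247-24897546 (plus strand), the Blnk window chr19:40994172-40994471 (minus strand) and the Fcrl1 window chr3:87376137-87376436 (plus strand).
Igll1: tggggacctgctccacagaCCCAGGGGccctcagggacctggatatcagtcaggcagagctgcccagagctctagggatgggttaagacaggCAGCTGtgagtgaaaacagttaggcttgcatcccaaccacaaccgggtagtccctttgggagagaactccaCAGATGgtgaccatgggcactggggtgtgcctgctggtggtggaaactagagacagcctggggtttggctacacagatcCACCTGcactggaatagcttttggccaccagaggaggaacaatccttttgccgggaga
Vpreb1: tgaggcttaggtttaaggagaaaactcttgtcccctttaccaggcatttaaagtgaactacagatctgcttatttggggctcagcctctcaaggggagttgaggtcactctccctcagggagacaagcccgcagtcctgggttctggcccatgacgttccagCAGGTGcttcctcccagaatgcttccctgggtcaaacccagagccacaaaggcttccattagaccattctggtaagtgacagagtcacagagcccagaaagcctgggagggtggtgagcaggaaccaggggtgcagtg
Cd79a: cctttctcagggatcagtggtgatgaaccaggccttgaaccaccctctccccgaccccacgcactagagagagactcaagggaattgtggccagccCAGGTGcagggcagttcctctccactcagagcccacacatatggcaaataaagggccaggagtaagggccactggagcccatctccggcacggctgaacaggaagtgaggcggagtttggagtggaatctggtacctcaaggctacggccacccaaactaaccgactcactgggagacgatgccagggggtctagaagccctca
Blnk: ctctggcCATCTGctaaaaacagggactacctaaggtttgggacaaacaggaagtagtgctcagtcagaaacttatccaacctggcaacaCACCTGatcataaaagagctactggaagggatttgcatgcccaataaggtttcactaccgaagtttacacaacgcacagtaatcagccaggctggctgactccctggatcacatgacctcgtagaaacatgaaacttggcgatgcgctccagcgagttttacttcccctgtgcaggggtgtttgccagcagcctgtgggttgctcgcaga
Fcrl1: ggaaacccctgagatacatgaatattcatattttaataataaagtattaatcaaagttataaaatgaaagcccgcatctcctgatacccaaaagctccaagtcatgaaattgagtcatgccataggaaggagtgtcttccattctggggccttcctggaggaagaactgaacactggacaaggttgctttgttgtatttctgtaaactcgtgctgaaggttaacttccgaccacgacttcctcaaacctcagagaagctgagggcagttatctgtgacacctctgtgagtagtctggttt
An E box match lay in the windows of Igll1 (3 matches), Blnk (2), Vpreb1 (1) and Cd79a (1), and in none of those of Fcrl1, Pax5 or Ebf1, while 51.4% of 32851 mouse promoter windows hold at least 1. The EBF core was matched once, in Igll1 at 231 bases before the start, and 13.7% of all windows hold it. The CArG box, the sequence that SRF binds, was matched in no window of these genes, and 1.63% of all windows hold it. A match is only a description of these letters, and its absence says nothing of the factor.

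Ebf1, the gene of the factor that opens the B cell program, had its highest signal on 1416301_a_at, and its other probe sets were dim. On control replicates 1 and 2 the intensity of 1416301_a_at was 195 and 85.3, below the array medians of 292.2 and 221.4. On the control arrays this probe set read 7.45, 6.75 and 9.49 for replicates 1, 2 and 3, and on the SRF-null arrays 8.27, 9.74 and 11.04. The SRF-null array was the higher one within each replicate number, by 0.82, 2.99 and 1.54, but the genotypes overlapped because control replicate 3 exceeded SRF-null replicate 1. The difference of the means was 1.79 (SE 0.95), a 3.45-fold higher signal, from 7.90 ± 1.42 (SD, n = 3) to 9.68 ± 1.38. Over all settings run it lay between 1.11, without SRF-null replicate 3 alone, and 2.58. The next probe set, 1448293_at, read 5.18, 4.43 and 6.64 against 5.61, 4.64 and 8.09, so its highest values were those of both arrays numbered 3, an order that 1416301_a_at did not have. The remaining 3 Ebf1 probe sets did not exceed 7.09 on any array.

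Pax5, whose product fixes B cell identity and holds other lineage programs in check, gave no usable signal. Both of its probe sets lay below a signal of 16 on all 6 arrays, at 4.33 to 4.53 for 1454401_at and 4.0 to 4.13 for 1421765_at. Values this close to the floor have no order that can be read, and the signal of a dim probe set does not show that the gene was silent.

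**Figure D1:**
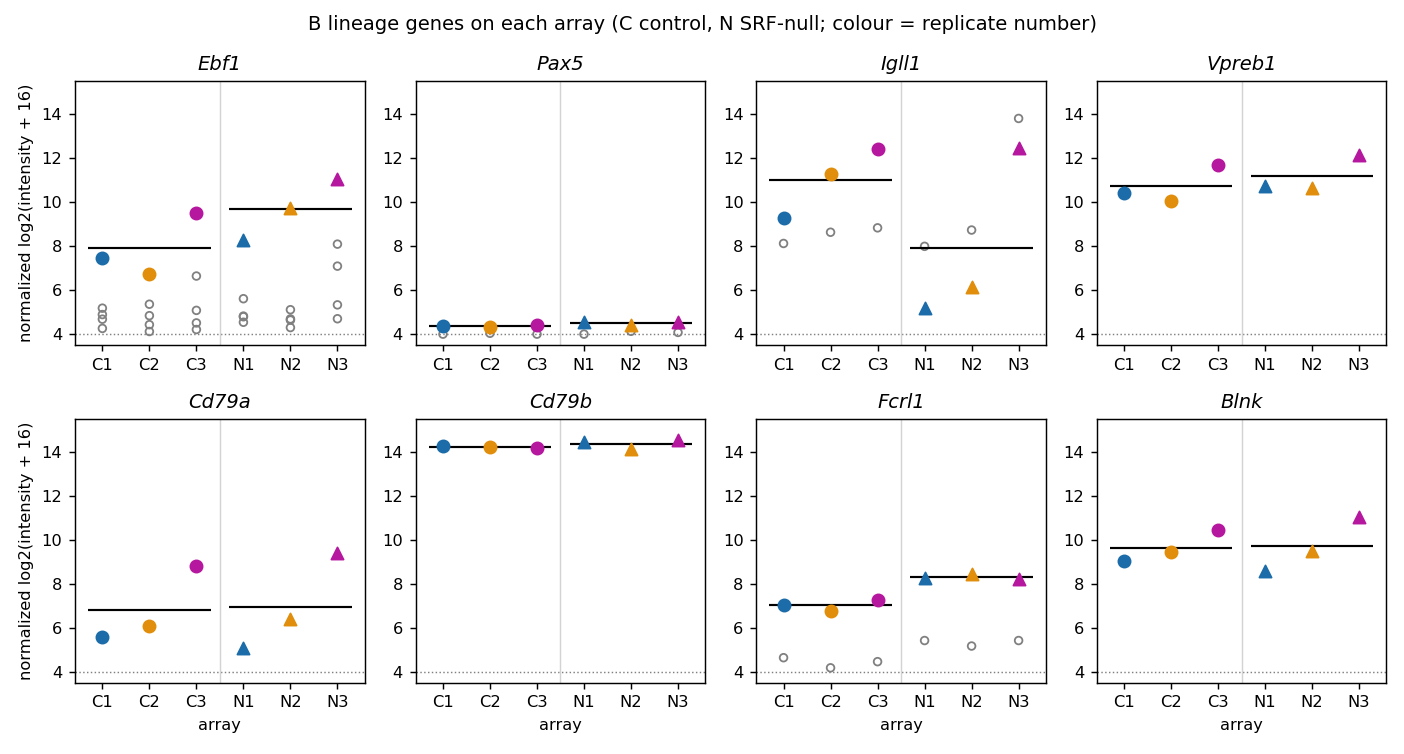
Normalized log2(intensity + 16) of each B lineage gene on the 3 control arrays (C1 to C3, circles) and 3 SRF-null arrays (N1 to N3, triangles), coloured by replicate number, for the brightest probe set (filled, with the group mean as a line) and the other probe sets (open grey). The dotted line is the floor of 4. Igll1, Vpreb1, Cd79a and Blnk are highest on C3 and N3, Fcrl1 is higher on every N array, and Cd79b is level at 14.14 to 14.51.

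The surrogate light chain genes varied more between arrays of 1 genotype than the genotype means differed. Igll1, which encodes lambda5, had the largest range of the 8 genes (7.26 on the log2 scale for 1420177_at). Its control arrays read 9.27, 11.27 and 12.42 and its SRF-null arrays 5.20, 6.13 and 12.47. SRF-null replicates 1 and 2 were below every control array, while SRF-null replicate 3 was above them all. The means therefore differed by −3.06 with an SE of 2.02 (−5.32 without SRF-null replicate 3), and the SD was 3.95 in SRF-null against 1.59 in control cells.

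The second Igll1 probe set, 1420176_x_at, had another order of arrays. It read 8.12, 8.63 and 8.83 on control and 7.99, 8.73 and 13.80 on SRF-null arrays, so 5 arrays were alike and SRF-null replicate 3 stood 4.97 above its numbered partner. Its difference was 1.65 (SE 1.51), of opposite sign to that of 1420177_at, and without SRF-null replicate 3 it was −0.17. The suffix x_at marks probe sets with oligonucleotides shared by other sequences, so part of this signal can come from related transcripts. Both probe sets had their highest values on the 2 arrays numbered 3, but for 1420176_x_at control replicate 3 exceeded the next array by only 0.1. Neither probe set gives Igll1 a direction between the genotypes.

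Vpreb1, the partner of Igll1 in the surrogate light chain, was steadier. It read 10.41, 10.03 and 11.70 on control arrays and 10.75, 10.66 and 12.16 on SRF-null arrays. The arrays numbered 3 were again the highest of their genotypes, and the lower of them exceeded every other array by 0.95. The SRF-null array was higher within each number, by 0.34, 0.64 and 0.46, and the mean difference was 0.48 (SE 0.58 without the pairing). Without SRF-null replicate 3 alone, with control replicate 3 kept, it was about 0, and the highest value over all settings run was 0.97. A further probe set annotated to both Vpreb2 and Vpreb1, which is no part of the 15, read 8.16, 7.96 and 9.16 against 8.30, 8.19 and 9.46 and so had the same 2 arrays on top.

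The 2 signalling chains of the B cell receptor did not run together. Cd79a read 5.58, 6.07 and 8.82 on control and 5.07, 6.41 and 9.39 on SRF-null arrays, and the lower array numbered 3 was 2.41 above the highest of the other 4. Its mean difference between the genotypes was 0.13 (SE 1.34), 6.82 ± 1.75 against 6.96 ± 2.21. Cd79b stayed within 14.14 to 14.51 on all arrays, with a mean difference of 0.14 (SE 0.14) and a range of only 0.37. The arrays numbered 3 were at 14.19 in control and 14.51 in SRF-null cells, the second lowest and the highest of the 6.

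Blnk, the adaptor that links the receptor's kinases to downstream enzymes, ranked the arrays as Cd79a did. It read 9.04, 9.44 and 10.43 on control and 8.60, 9.47 and 11.04 on SRF-null arrays. The lower array numbered 3 exceeded the others by 0.96, and SRF-null replicate 1 was the lowest array, as it was for Cd79a and for 1420177_at of Igll1. The genotype means of 9.64 ± 0.71 and 9.70 ± 1.24 differed by 0.06 (SE 0.69).

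Fcrl1, which encodes an Fc receptor-like protein of the B cell surface, had the opposite arrangement, with little spread inside a genotype and a clear gap between them. Its brighter probe set, 1425062_at, read 7.04, 6.74 and 7.28 on control and 8.26, 8.45 and 8.21 on SRF-null arrays. All 3 SRF-null arrays lay above all 3 control arrays, and the means of 7.02 ± 0.27 and 8.31 ± 0.13 differed by 1.29 (SE 0.18), 2.45-fold. The dimmer probe set, 1425063_at, read 4.64, 4.18 and 4.46 against 5.42, 5.17 and 5.42, which is 0.91 higher (SE 0.17) and close to the floor, with all 3 control arrays below a signal of 16. The size depended on the offset, since 1425062_at differed by 1.40 with an offset of 1 and by 1.04 with an offset of 64. Over 15 other processing settings its difference stayed between 1.04 and 1.47. Fcrl1 was among the smallest p-values of the earlier examination that led to these genes, so the gap is no independent evidence.

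**Figure D2:**
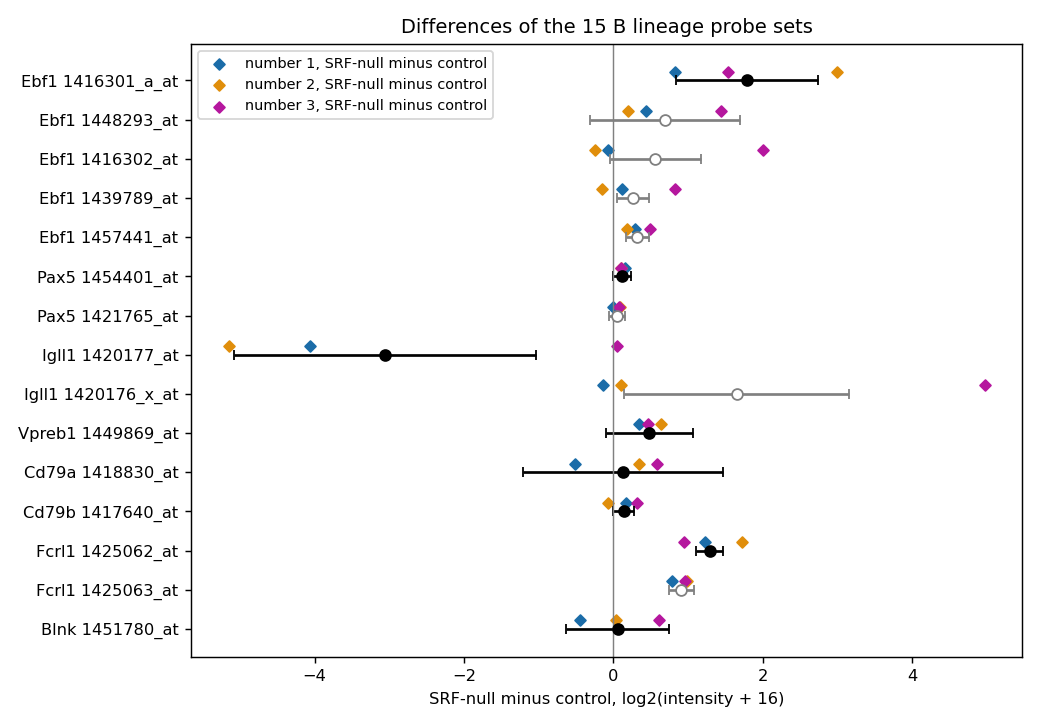
SRF-null minus control difference of log2(intensity + 16) for all 15 probe sets, with the limma standard error as bars (filled for the brightest probe set of a gene, open for the others), and the difference within each replicate number as diamonds. The diamonds of Fcrl1 lie together to the right of 0, while those of the Igll1 probe sets are spread from −5.15 to 4.97.

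Over the genotype contrast as a whole, 14 of the 15 probe sets had the higher mean in SRF-null cells, as 50% of all probe sets did, and the median difference was 0.32 against 0.00 over all probe sets. For the brightest probe set of each gene, 7 had the higher mean there, as 48.6% of all genes did, with a median of 0.14 against −0.01 over all 18193 genes. All SRF-null arrays lay above all control arrays for 4 of the 15, where 4.73% of all probe sets did so. These 4 were both Fcrl1 probe sets and, below a signal of 16 on all arrays, 1454401_at of Pax5 and 1457441_at of Ebf1. In no case did all SRF-null arrays lie below, against 4.5% of all probe sets. Since this contrast chose the genes, nothing is read from these counts. The mean over the 8 genes was 8.43, 8.61 and 9.85 on control arrays and 8.14, 8.68 and 10.42 on SRF-null arrays, and the difference of 0.12 (SE 0.82) was small beside the spread within a genotype. It rests heavily on Igll1 1420177_at (−3.06), the only 1 of the 8 with a lower mean in SRF-null cells. The other Igll1 probe set, which does not enter this mean, differed by 1.65.

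The spread between arrays of 1 genotype is given as a description too. Its pooled SD had a median of 0.86 over the 15 probe sets, against 0.28 over all 45037. On the brightest probe sets, both arrays numbered 3 were higher than the other 4 for Igll1, Vpreb1, Cd79a and Blnk, which are 4 of 8 genes, where 10.9% of all genes had that order. For no gene were both arrays numbered 1 or both numbered 2 the highest, against 5.43% and 9.32% of all genes. Over all 15 probe sets the arrays numbered 3 were highest for 6 (1420176_x_at of Igll1 by only 0.1), against 11% of all probe sets. The arrays numbered 1 or 2 were highest for none, against 12.1% and 7.73%. The order with the arrays numbered 3 highest was noticed in the data, and no test was made of it.

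Markers of other cells moved with the arrays numbered 3 in part. Of 8 measured LSK markers, Kit, Mecom, Procr and Hlf were lowest on both arrays numbered 3, against 7.73% of all genes. The margins were narrow, as control replicate 3 was close to the lowest of the other arrays (Kit 14.84 against 14.90, Hlf 15.75 against 15.85). The summed LSK signal was 383384 to 518183 on control and 353498 to 451825 on SRF-null arrays with the array numbered 3 lowest in each. Among 9 granulocyte and monocyte genes Elane and the lipopolysaccharide receptor gene Cd14 were highest there, Cd14 at 10.82 and 10.08 against 6.12 to 7.39 elsewhere. The other 7 did not follow, and that list summed to 255907 to 342386 on control and 306579 to 332299 on SRF-null arrays. Of 7 T cell genes 1 was highest there, with sums of 1702 to 5890 and 3565 to 7599. This was Cd3d (4.98 and 5.05), below a signal of 16 on 5 of the 6 arrays and too close to the floor for its order to be read. Of 4 NK cell genes 0 were highest on both arrays numbered 3, with sums of 56183 to 66426 and 76678 to 84505. Of 5 plasmacytoid dendritic cell genes only Ly6d was, with sums of 93625 to 104247 and 103514 to 111660, and of 4 erythroid genes 0 were, with sums of 45708 to 52697 and 37369 to 59295. Such sums are set mostly by bright genes, in the NK cell list by Nkg7 (15.77 to 16.35). The mean log2 signal of the NK cell genes was 11.06 on SRF-null replicate 3 and 7.96 to 9.44 elsewhere. For plasmacytoid dendritic cell genes it was 13.00 there and 10.67 to 11.92 elsewhere, with Siglech at 13.33 there. By this measure T cell, granulocyte and monocyte, and erythroid genes were also highest on that array, by smaller margins. As a measure of RNA integrity, the 3′ minus 5′ log2 signal of the Actb control probes was 1.35 and 0.93 on the arrays numbered 3 and 1.00 to 1.51 on the others. The part of any of these in the result was not tested.

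The rest of the B cell program was read through 52 further genes in 6 lists, of which 45 were measured. By limma over all probe sets, 0 of the 45 passed an adjusted p of 0.05 in either direction, as did 0 of 45037 probe sets (0%). At an unadjusted p under 0.05 there were 3 of the 45 and 1975 of all probe sets (4.39%), and 5 and 3189 with the replicate number as a block. None of the following differences therefore passed. Of the 45 genes 27 had higher and 18 lower means in SRF-null cells, with a median difference of 0.13, and all SRF-null arrays were above all control arrays for 6, where 5.14% of all genes were. The 6 were Il7r, Dntt, Bst1, Cd37, Ikzf1 and Tnfrsf13b. Both arrays numbered 3 were highest for 11 of the 45, numbered 1 for 4 and numbered 2 for 2.

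Among 14 transcription factors 11 had higher and 3 lower means in SRF-null cells, and 4 were highest on both arrays numbered 3. Pou2af1, a coactivator of immunoglobulin genes, read 7.68, 8.28 and 12.87 on control and 6.93, 8.82 and 12.12 on SRF-null arrays, and differed by −0.32 (SE 1.83). Irf4 read 8.33, 8.92 and 11.56 against 8.23, 9.97 and 11.53, and Ikzf3, the gene of the lymphoid factor Aiolos, read 5.86, 5.40 and 8.70 against 5.76, 6.52 and 8.89. In each of these the 2 arrays numbered 3 stood clear of the rest. Spib read 5.22, 5.52 and 6.67 against 4.43, 7.63 and 9.23, and Lef1 6.80, 8.64 and 7.63 against 5.62, 7.92 and 9.28, both without that order. Tcf3, which encodes the E2A proteins that bind E boxes, differed by −0.58 (SE 0.33) and Pou2f2 by 0.43 (SE 0.21).

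The 3 genes of V(D)J recombination, the cutting and joining of antigen receptor gene segments, all had higher means in SRF-null cells without passing. Rag1 read 7.39, 6.16 and 8.24 on control and 7.82, 8.27 and 10.64 on SRF-null arrays (difference 1.65, SE 0.88), and Rag2 read 7.70, 7.48 and 8.71 against 8.35, 9.08 and 10.20 (1.25, SE 0.55). In both the SRF-null array was higher within every number, while the genotypes overlapped at control replicate 3. Without SRF-null replicate 3 alone, with control replicate 3 kept, the differences were 0.78 and 0.75. These were the lowest over all settings run, and the highest were 2.19 and 1.68. Dntt, whose product adds bases at the joints, was bright at 16.51, 16.31 and 16.58 against 16.88, 16.92 and 16.76, a difference of 0.39 (SE 0.13) with no overlap.

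Receptor chains had the highest signals on the arrays numbered 3 in 2 of 3 measured genes. Ighm, the mu heavy chain gene, read 16.22, 15.14 and 17.69 on control and 15.55, 15.85 and 17.36 on SRF-null arrays. Jchain, which joins secreted IgM and IgA, read 14.81, 13.98 and 16.66 against 13.33, 14.17 and 16.31. Neither differed between the genotypes beyond its error (−0.09, SE 0.77, and −0.54, SE 0.98). Vpreb3 was dim, at 4.99 to 6.37. In a list of 5 plasma cell genes, the antibody-secreting end of the lineage, Prdm1 was also highest there (8.05 and 7.30), while Sdc1 was not, and the list summed highest on the array numbered 3 of each genotype (73975 to 173129 on control and 49416 to 149827 on SRF-null arrays). Xbp1 differed between the genotypes by −0.79 (SE 0.32).

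Receptor signalling genes were mostly bright and level, with a median range of 0.62 over the 9 measured, 2 of them with higher and 7 with lower means in SRF-null cells. Syk, the kinase recruited by CD79 chains, stayed between 14.61 and 14.89 and Btk between 14.84 and 15.25. Blk, a kinase gene of the B lineage, had both arrays numbered 3 highest, at 5.82, 7.26 and 7.95 against 5.92, 6.42 and 7.95. Bank1, a B cell scaffold gene, read 7.01, 6.06 and 7.09 against 6.89, 8.56 and 8.36 (1.22, SE 0.52). Pik3ap1 differed by 0.43 (SE 0.45) and had both arrays numbered 3 lowest, and Dapp1 differed by −0.17 (SE 0.17).

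Of 12 B cell surface genes 6 had higher and 6 lower means in SRF-null cells, and Ms4a1, Fcrla and Cd22 were highest on both arrays numbered 3. Cd22 was close to the floor, at 4.79 to 5.82 with 3 arrays below a signal of 16. Ms4a1, the gene of CD20, read 4.81, 4.18 and 6.19 on control and 4.11, 4.23 and 8.81 on SRF-null arrays. Fcrla, a relative of Fcrl1, read 5.14, 5.38 and 8.10 against 5.31, 4.98 and 8.04, so it had both arrays numbered 3 on top, as Cd79a did, and differed by −0.09 (SE 1.12) where Fcrl1 differed by 1.29. Bst1, found on early B cells and bone marrow stroma, read 4.53, 4.0 and 4.66 against 5.0, 5.74 and 5.84 (1.13, SE 0.29). It lay near the floor in control cells, and the difference depended on the offset, being 2.80 at 1 and 0.45 at 64. Cd37, a tetraspanin gene, was at 14.47 to 15.17 on control and 15.26 to 15.46 on SRF-null arrays (0.49, SE 0.21).

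All 4 receptor and surface genes of lymphoid progenitors had higher means in SRF-null cells, and none passed. Il7r, the receptor of the cytokine that early B cells need in the mouse, read 10.09, 10.24 and 11.16 on control and 11.79, 12.47 and 13.55 on SRF-null arrays, with no overlap (2.11, SE 0.51). Ly6d, which marks lymphoid progenitors that have turned to the B lineage, read 6.98, 7.06 and 10.61 against 7.43, 7.08 and 11.21, so the lower array numbered 3 was 3.19 above the highest of the others and the genotypes differed by 0.35 (SE 1.47). Flt3 and Cd93 differed by 0.13 each, with SE 0.21 and 0.13. Many markers of other cells also had higher means in SRF-null cells without passing, as 48.6% of all genes did. All 4 NK cell genes did, among them Gzma (3.09, SE 1.19) and Klrd1 (1.42, SE 0.39), and so did 6 of 7 T cell and 3 of 4 erythroid genes. So did 7 of 9 granulocyte and monocyte genes, with a median difference of 0.14 and C1qa at 1.70 (SE 0.56). Of 5 plasmacytoid dendritic cell genes 4 did, with Ccr9 at 3.38 (SE 1.03). Means were lower in SRF-null cells for 6 of 8 LSK markers and 3 of 5 plasma cell genes. The part of other cells in the differences of the lymphoid genes was not tested.

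**Figure D3:**
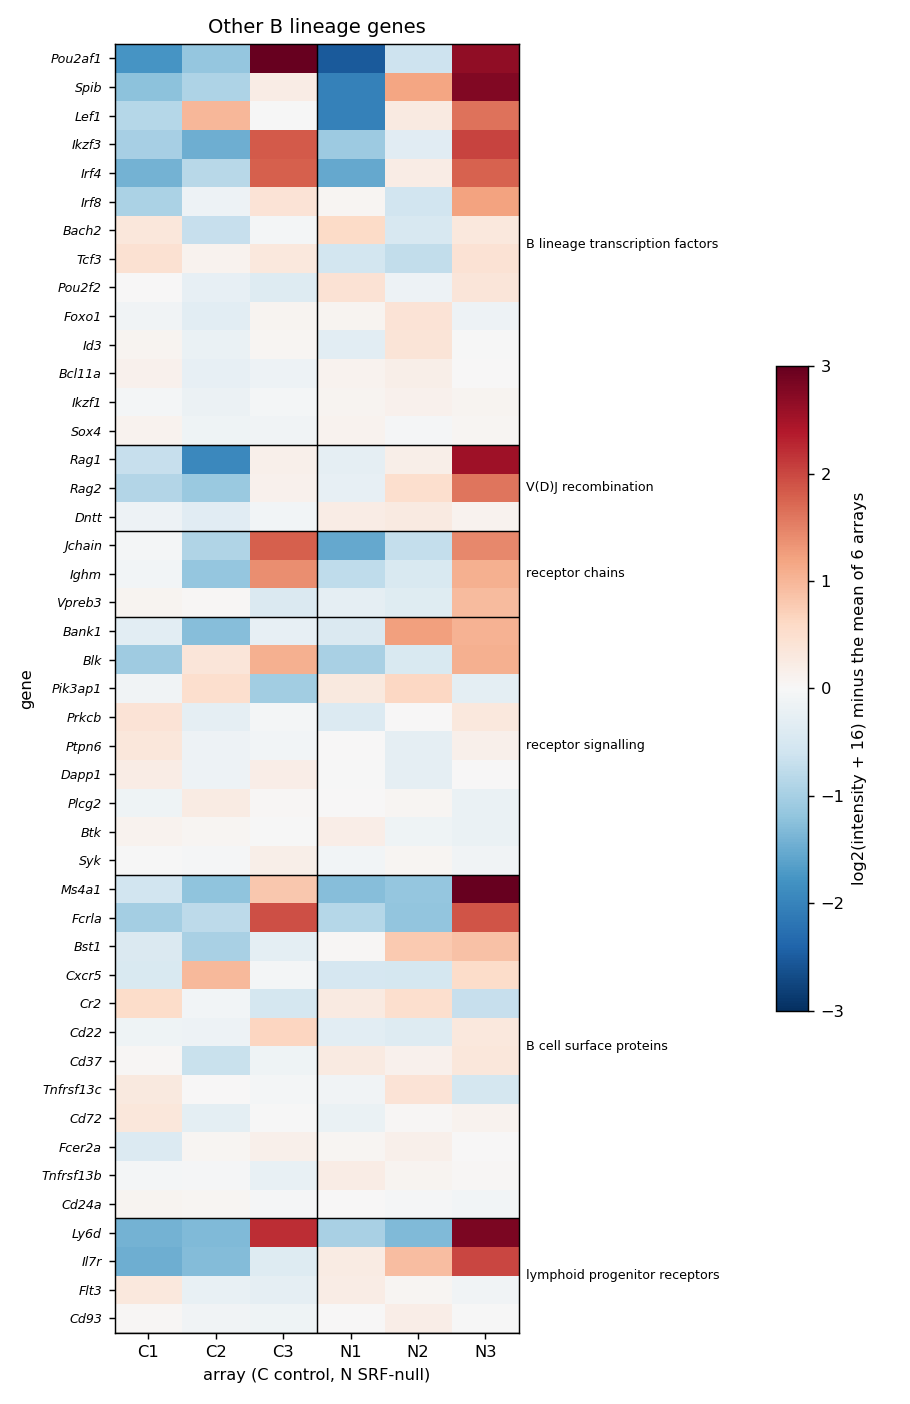
Log2(intensity + 16) of the 45 other B lineage genes on each array after subtraction of the gene's mean over 6 arrays, grouped by list and sorted by range within a list, with colours capped at 3 in both directions. Columns C3 and N3 are red for Pou2af1, Ikzf3, Irf4, Ighm, Jchain, Fcrla and Ly6d, and the N columns are higher than the C columns for Il7r.

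The genes whose arrays ran most like these were sought over all 18193 genes by the mean absolute difference from a profile over the 6 arrays, after each gene's own mean was subtracted. Nearest to the mean profile of the 8 genes were the MHC class II gene H2-Eb1 (0.14 log2 units on average), Dsp (0.17), Cavin2 (0.18), Slc45a3 (0.18) and Gas7 (0.21). H2-Eb1 read 11.27, 11.54 and 12.63 on control and 11.38, 11.72 and 13.53 on SRF-null arrays. Of the 8 genes themselves Blnk (0.11) and Vpreb1 (0.26) lay nearest to that mean and Igll1 farthest (2.12). Nearest to Igll1 1420177_at were the immunoglobulin light chain gene Iglv1 (1.06), Eps8l1 (1.25), Ccn3 (1.30), the kappa variable gene Igkv6-15 (1.33) and Rbm45 (1.41). Iglv1 read 11.04, 12.32 and 14.52 against 4.99, 10.78 and 13.80, so it shared with Igll1 the low value on SRF-null replicate 1. With 6 arrays and 18193 genes, near profiles also arise without any tie between genes, and these names are a description.

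**Figure D4:**
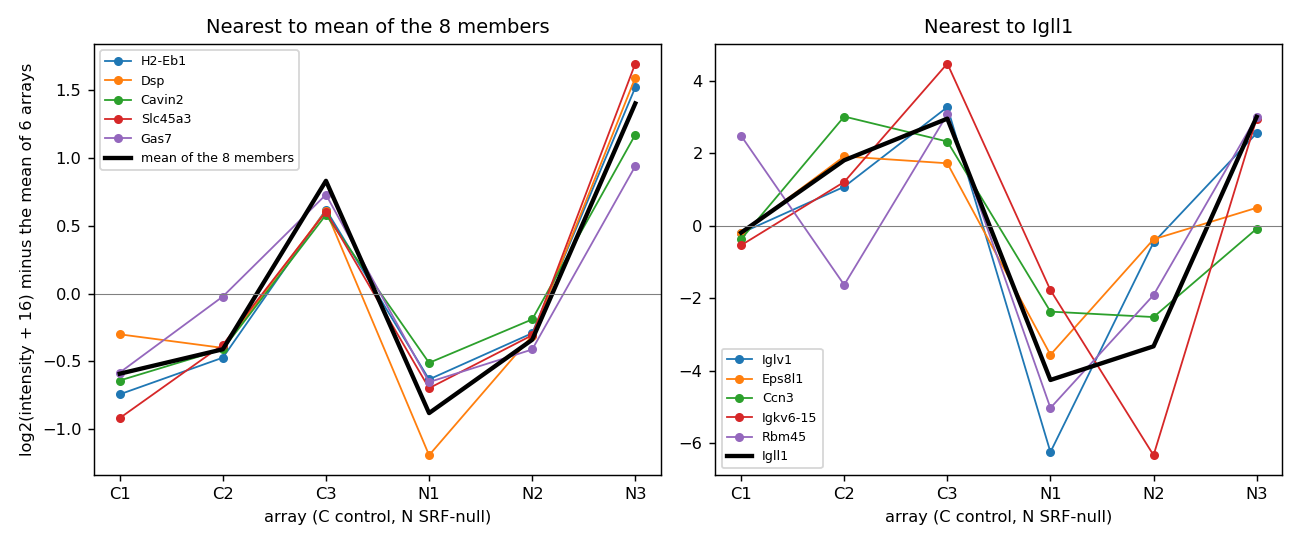
Log2(intensity + 16) minus the gene's mean over 6 arrays, for the 5 genes nearest to the mean profile of the 8 B lineage genes (left, thick line the mean profile) and to Igll1 1420177_at (right, thick line Igll1). The left profiles peak on C3 and N3, and on the right Igll1 and Iglv1 drop on N1.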

How the data were processed

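The deposited table gives a linear intensity for every probe set on every array, a unit read from its values. For each sample 30 ng of RNA was, per the labels' protocols, amplified and biotin-labelled with NuGEN kits. The summary method, background correction and scaling that the authors used, and any detection calls, are not stated by the labels or the table. The design text names MOE430A, but the table, with 45101 probe sets, 64 of them controls, is larger and was used as it stands. Values were converted to log2(value + 16) and, because array medians differed by 0.51 (limit 0.1), quantile normalized, and fold changes on this scale understate those of dim genes. Genes were named from the platform annotation (34945 probe sets with 1 gene, 932 with several, 9160 with none), and 34741 of the 34945 were found by gene ID in RefSeq. A gene's brightest probe set stands for it where 1 value per gene is used.

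SRF-null was compared with control by limma 3.58.1 in R 4.3.3 (moderated, two-sided, Benjamini-Hochberg over 45037 probe sets, threshold 0.05), and the fit was tested on simulated data. The 8 genes and all lists were chosen with earlier results of these data known. Of each other list the 3 genes with the largest range and the 2 with the smallest p were eligible to be named (those of other cell types mostly as counts and sums), and others named (Ikzf1, Ikzf3, Tnfrsf13b, Cd22, Syk, Btk, Kit, Hlf, Cd34, Cd3d, Cd3g, Hba-a1) were chosen after their values were seen. Summed list signals are normalized linear intensities. Deviations from group means correlated by 0.473, 0.21 and 0.427 within replicate numbers 1, 2 and 3, against −0.424 to 0.014 between different numbers, so the numbers were taken to pair arrays, although no label says what they share. Alternatives changed the offset (1 or 64), the normalization, the dim-probe filter, the feature, the variance model, the replicate block and the arrays kept, and leaving out both arrays numbered 3 was added after the data were seen. Figures used matplotlib 3.10.9.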

Additional observations from a re-analysis of the deposited data

How the results depend on the processing

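The mean difference over the 8 B lineage genes (0.12) moved by less than the SD between arrays under every alternative run, and ranged from −0.55 (without SRF-null replicate 3) to 0.59 (without SRF-null replicate 1). Its sign also turned without control replicate 1 (−0.15) or control replicate 2 (−0.06), without both arrays numbered 3 (−0.11) and with only probe sets above the median level (−0.12). This last value is no mean over all 8 genes, because that filter removed Pax5, Cd79a and Fcrl1. The count past the threshold was 0 except for 1 with median centring (Mocs1) and 1 without control replicate 2 (Ccnb1ip1), both named after their values were seen, so leaving out 1 replicate gave 0 to 1. Of the other B lineage genes 0 passed under every alternative run. The 1975 probe sets with an unadjusted p under 0.05 became 1231 with median centring, 1127 above the median level, 1044 with 1 probe set per gene, 3189 with the replicate block, 3422 without control replicate 1 and 1289 when the 2 arrays that stand apart in sex-linked genes were left out. The 3 other B lineage genes became 7 with a trended and robust variance, 5 with the replicate block and 5 without SRF-null replicate 1. The cause of these shifts was not tested, beyond the fewer features tested above the median level and with 1 probe set per gene. The block changed no other call. Of 224 differences of single B lineage probe sets under an alternative, 10 moved by more than the SD between arrays and 15 changed sign, 6 of these without SRF-null replicate 3 (Cd79a −1.08, Blnk −0.61). Of 1304 such differences of the other listed genes 6 moved and 97 changed sign, 10 of these without the 2 arrays that stand apart in sex-linked genes. Those of Ebf1 1416301_a_at (1.11 to 2.58), Igll1 1420177_at (−5.32 to −1.55) and both Fcrl1 probe sets (1.04 to 1.47 and 0.35 to 2.07) kept their sign in every alternative run. With 3 arrays per genotype and no detection calls, values near the floor, Pax5 among them, are limited by signal over background.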
